A study of Mus musculus with 3 samples.

Results

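Kruppel-like factors (KLFs) are transcription factors that bind CACCC and GC-rich DNA through zinc fingers at the end of the protein. Klf2, Klf4, Klf6 and Klf7 belong to the subgroup known mainly for activating genes with acetyltransferases. Klf3 recruits the corepressor CtBP, and Klf9, Klf10, Klf13 and Klf16 bind the corepressor Sin3. In the monocyte lineage Klf4 is required for the production of Ly6Chi monocytes, Klf2 restrains inflammatory activation, and Klf6 promotes it in macrophages.

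The 9 genes Klf2, Klf3, Klf4, Klf6, Klf7, Klf9, Klf10, Klf13 and Klf16 were taken as a named list from the 22238 genes measured in all 3 libraries, and all 9 were found. The libraries came from wild-type female C57BL/6J mice, 10 to 12 weeks old, with experimental autoimmune encephalomyelitis (EAE), a mouse model of multiple sclerosis. EAE was induced with a myelin oligodendrocyte glycoprotein peptide in complete Freund's adjuvant and 250 ng pertussis toxin at 2 and 24 hours. Cells were sorted at days 14 to 15. Monocytes of the bone marrow (BM monocytes) were sorted as Ly6Chi cells positive for CD45 and CD11b and negative for Ly6G and CD11c, and pooled from 13 mice in 2 experiments. Monocytes of the spinal cord (SC monocytes) were sorted as Ly6Chi cells positive for CD45, CD11b and CD64 and negative for Ly6G. Antigen-presenting cells derived from monocytes (APCs) were sorted from the same tissue by that gate, except that they were Ly6Clow/-. Both spinal cord populations came from 18 mice in 3 experiments. Every animal was immunized, so no library shows monocytes without EAE. One of the labels of the APC library names bone marrow as the source, while its title and tissue label name the spinal cord, and it is called spinal cord here.

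Each population was 1 pooled library, so no difference below has a replicate check and every interval covers counting error only. Bone marrow was flushed and spinal cord was digested with enzymes, so tissue and handling cannot be told apart. Libraries held 27283795 to 33280643 estimated reads. The APC values list fewer genes than the monocyte values, 22242 against 54432. They may have been quantified on a different set of transcripts, which the sources used here do not describe. Levels are given as TPM, a transcript level per gene length, rescaled to the same sum over the common genes, with a 95% Wilson interval. Differences are log2 fold changes of reads with a 98% interval, and calls needed the whole interval to be past a 2-fold change with TPM over 3 in either library. All 6 monocyte markers were above 3 TPM in every library, the lowest at 81.3 TPM. Their summed level was 10339, 8889 and 3488 TPM in BM monocytes, SC monocytes and APCs, the order used for every set of 3 values below. Low Ly6C was part of the APC gate, and without Ly6c2 the sum was 5134, 5287 and 2421 TPM. Csf1r, in contrast to the sum, was highest in APCs, at 374, 676 and 1134 TPM.

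From BM to SC monocytes, Klf6, Klf16, Klf10 and Klf4 rose and Klf13 and Klf3 fell on reads. The calls of Klf10, Klf4 and Klf3 were lost when reads were divided by effective length, and those of Klf6, Klf16 and Klf13 were not. With an assumed coefficient of variation of 0.2 between libraries, only the call of Klf6 remained. Between SC monocytes and APCs none of the 9 passed the threshold, although all 9 had lower scaled reads in APCs. Klf6 replaced Klf13 as the most abundant of the 9 in the spinal cord. The plot of levels by library shows the 9 genes side by side.

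**Figure D1:**
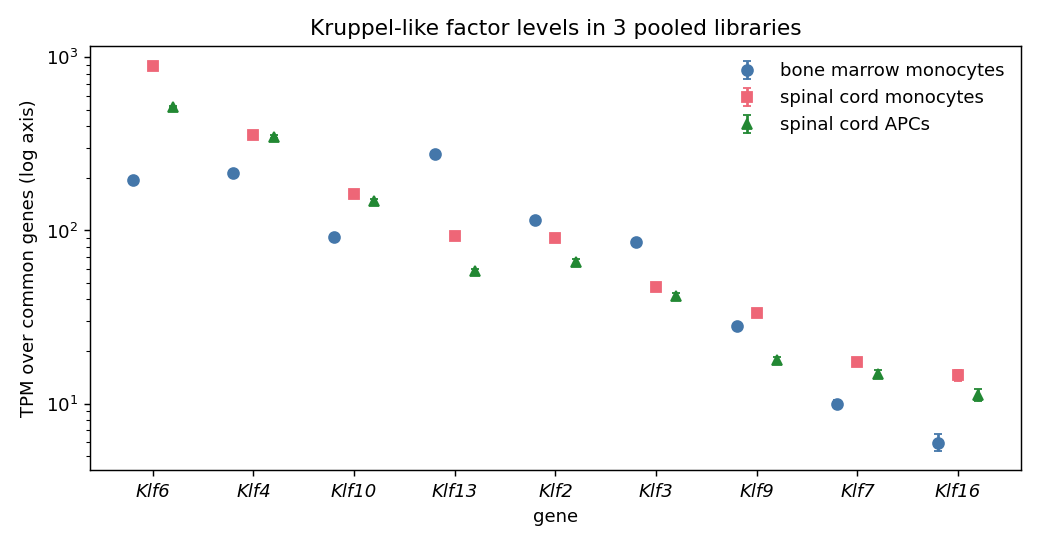
TPM of each Kruppel-like factor (log axis) in BM monocytes (circles), SC monocytes (squares) and APCs (triangles), 1 pooled library each, with bars for the 95% counting interval. Klf6 stood at 195, 894 and 517 TPM, while Klf13 stood at 277, 92.8 and 58.4 TPM.

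Upstream sequence is shown for Klf6 and Klf4, which rose in the spinal cord, and for Klf13, which fell. Each is the 250 bases before the start of the gene in RefSeq on GRCm38.p6, printed in the direction of the gene, with capitals for the KLF and SP binding motifs GGGCGG and CACCC and their reverse complements CCGCCC and GGGTG. The Klf6 window is chr13:5861239-5861488 (plus strand), that of Klf4 chr4:55532476-55532725 (minus strand) and that of Klf13 chr7:63938916-63939165 (minus strand).
Klf6: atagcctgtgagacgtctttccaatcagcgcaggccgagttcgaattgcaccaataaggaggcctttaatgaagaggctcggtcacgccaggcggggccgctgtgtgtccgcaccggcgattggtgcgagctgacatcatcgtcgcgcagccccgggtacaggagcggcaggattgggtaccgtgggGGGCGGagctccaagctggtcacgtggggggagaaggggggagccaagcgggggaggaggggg
Klf4: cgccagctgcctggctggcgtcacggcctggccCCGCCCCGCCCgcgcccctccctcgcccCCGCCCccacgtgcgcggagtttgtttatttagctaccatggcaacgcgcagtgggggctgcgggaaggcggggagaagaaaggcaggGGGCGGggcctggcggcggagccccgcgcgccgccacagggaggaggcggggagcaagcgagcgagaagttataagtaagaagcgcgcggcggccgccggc
Klf13: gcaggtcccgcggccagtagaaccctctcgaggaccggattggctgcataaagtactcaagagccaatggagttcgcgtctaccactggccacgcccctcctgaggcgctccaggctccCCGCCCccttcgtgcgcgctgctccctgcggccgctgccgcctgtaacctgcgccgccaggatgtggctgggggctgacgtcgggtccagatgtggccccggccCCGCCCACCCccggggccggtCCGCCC
Klf6 held 1 GGGCGG and no CACCC, Klf4 held 4 GGGCGG and no CACCC, and Klf13 held 3 GGGCGG and 1 CACCC, which overlapped a GC box. RefSeq windows were at hand for 7 of the 9 genes. Among these 7, GGGCGG was found in all but Klf9, with 6 copies in Klf3, 2 in Klf2 and 1 in Klf7. CACCC was found 5 times in Klf3, 3 times in Klf7 and once each in Klf2, Klf9 and Klf13. Of all 32851 promoter windows, 32.7% held GGGCGG and 52.0% held CACCC on either strand. The 7 windows were rich in GC, at 59.2% to 78.4% against a median of 52.4% over all windows, and held 13 to 32 CpG against a median of 6. The AP-1 motif TGACTCA (or TGAGTCA), present in 4.46% of all windows, and the cAMP response motif TGACGTCA, present in 1.55%, were in none of the 7. A match or its absence describes these letters in this window only.

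Klf6 (ENSMUSG00000000078.7) is encoded on chromosome 13 (GRCm38, from 5861482 to 5870394). Estimated reads were 14297 in BM monocytes, 59466 in SC monocytes and 41980 in APCs. Its level was 195 TPM (95% interval 192 to 198), 894 TPM (887 to 901) and 517 TPM (512 to 522), so that it was lowest in the bone marrow and highest in SC monocytes. Among genes over 3 TPM it ranked 744 of 9393 by level in BM monocytes, 198 of 9345 in SC monocytes and 291 of 9428 in APCs. Klf6 rose by a log2 fold change of 2.52 (98% interval 2.48 to 2.55), or 5.72-fold, from BM to SC monocytes. It stood at rank 729 from the top of the 10072 genes tested in this step. The second step, from SC monocytes to APCs, gave -0.65 (98% interval -0.67 to -0.63), which was not called. The APC library remained above the bone marrow, at 1.88 (98% interval 1.85 to 1.91), which was called.

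Klf4 (ENSMUSG00000003032.8), on chromosome 4 from 55527143 to 55532466, had 12275, 18446 and 19679 reads. Its level of 216 TPM (95% interval 212 to 219) in BM monocytes compared with 358 TPM (353 to 363) and 349 TPM (344 to 354) in the spinal cord libraries. Klf4 thus stood at a like level in both spinal cord libraries and lower in the bone marrow. The log2 fold change to SC monocytes was 1.05 (98% interval 1.01 to 1.09), just past the threshold. Divided by effective length it was 0.95 (98% interval 0.91 to 0.99), and Klf4 was then not called. Scaling by total reads gave 0.89 and also ended the call, as did a wider interval of the posterior. From SC monocytes to APCs it was -0.05 (98% interval -0.09 to -0.02) on reads and 0.04 (98% interval 0.01 to 0.08) per length, so its sign depended on the length used. The APCs differed from BM monocytes by 1.01 (98% interval 0.97 to 1.05), which was not called.

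Klf2 (ENSMUSG00000055148.7), on chromosome 8 from 72319033 to 72321656, is known for keeping lymphocytes quiescent and in circulation. It had 3879, 2761 and 2189 reads, or 114 TPM (95% interval 111 to 118), 90.7 TPM (87.4 to 94.2) and 65.7 TPM (63.0 to 68.6). Its log2 fold change between the monocyte libraries was -0.03 (98% interval -0.11 to 0.05) on reads, with 0 inside the interval. Per length it was -0.11 (98% interval -0.20 to -0.03), which lay wholly below 0. The step to APCs was -0.48 (98% interval -0.58 to -0.39), and Klf2 was called in no comparison. The ratio of Klf4 to Klf2 in TPM, which does not depend on how libraries are scaled to each other, was 1.89 (98% interval 1.81 to 1.97) in BM monocytes. It was 3.94 (3.76 to 4.14) in SC monocytes and 5.31 (5.04 to 5.59) in APCs. The 3 intervals did not overlap.

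Klf7 (ENSMUSG00000025959.13), on chromosome 1 from 64029447 to 64122282 and best known in neurons, had 1330, 1906 and 1961 reads. At 9.96 TPM (95% interval 9.44 to 10.5), 17.4 TPM (16.6 to 18.2) and 14.9 TPM (14.2 to 15.6) it was the second lowest of the 9 in every library. The log2 fold change from BM to SC monocytes was 0.98 (98% interval 0.86 to 1.10) on reads and 1.02 (98% interval 0.90 to 1.14) per length, and neither was called. It was -0.11 (98% interval -0.21 to 0.00) in the step to APCs. Of the stretches of 50 bases, the read length, in its transcripts, 38.2% also occur in transcripts of a long noncoding RNA, Gm26649, which overlaps it on the opposite strand. Gm26649 had 3 reads in bone marrow and 1 in SC monocytes, so few reads were assigned to it where both were listed.

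Klf3 (ENSMUSG00000029178.14), on chromosome 5 from 64803388 to 64832901, had 7941, 2718 and 2462 reads. Its TPM was 85.2 (95% interval 83.4 to 87.1), 47.1 (45.4 to 49.0) and 41.9 (40.3 to 43.6), highest in the bone marrow. On reads Klf3 fell by a log2 fold change of -1.09 (98% interval -1.16 to -1.01) into SC monocytes. This call depended on the length used. The effective length used for Klf3 was 4363 bases in BM monocytes but 2975 in SC monocytes and 2817 in APCs, and per length the change was -0.63 (98% interval -0.71 to -0.56), which was not called. Annotation lists 9 Klf3 transcripts of 298 to 5221 bases, 4 of them coding and 3 with a retained intron. Which of these transcripts differed cannot be read from values summed over the gene. The step to APCs was -0.29 (98% interval -0.38 to -0.20) on reads and -0.09 (98% interval -0.18 to 0.00) per length. The plot of effective lengths shows Klf3 as the gene of the 9 with the widest spread.

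**Figure D2:**
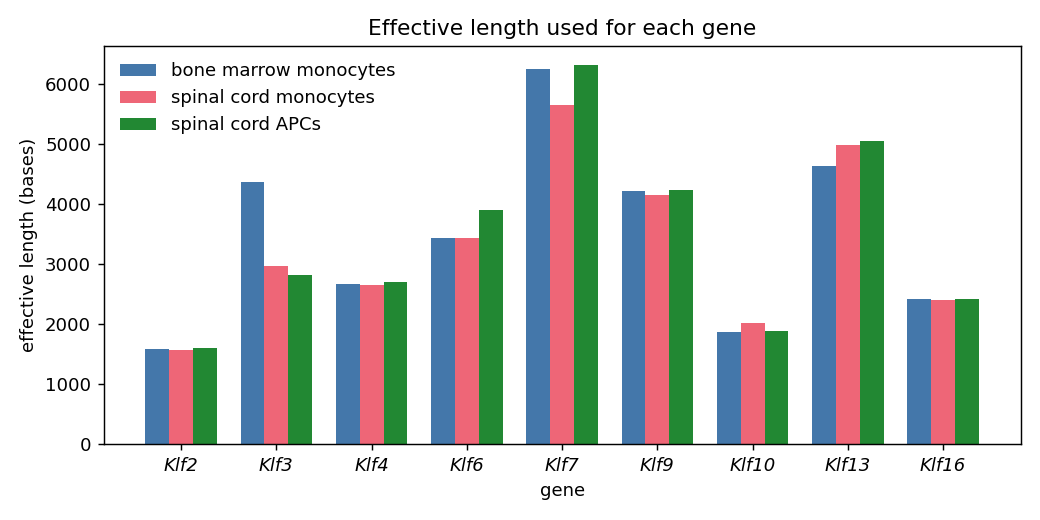
Effective length in bases (bars from 0) used for each of the 9 genes in BM monocytes, SC monocytes and APCs, with no error bars. Klf3 went from 4363 to 2975 and 2817 bases, while Klf6 had 3429 and 3432 bases in the monocyte libraries and 3898 in APCs.

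Klf13 (ENSMUSG00000052040.10), on chromosome 7 from 63886351 to 63938915, is known as an activator of Ccl5 in T cells. It had 27478, 8965 and 6158 reads, or 277 TPM (95% interval 274 to 281), 92.8 TPM (90.9 to 94.7) and 58.4 TPM (57.0 to 59.9). BM monocytes were highest and APCs lowest. Klf13 fell by a log2 fold change of -1.16 (98% interval -1.20 to -1.12) into SC monocytes, and of -1.36 (98% interval -1.40 to -1.32) per length. The difference of APCs from BM monocytes was -1.83 (98% interval -1.88 to -1.78), the lowest of the 9. The step from SC monocytes to APCs, at -0.69 (98% interval -0.74 to -0.63), was not called. Ccl5, in contrast, had 3 reads in BM monocytes, 3631 in SC monocytes and 3857 in APCs.

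The ratio of Klf6 to Klf13 in TPM was 0.704 (98% interval 0.687 to 0.721) in BM monocytes, 9.64 (9.39 to 9.90) in SC monocytes and 8.84 (8.57 to 9.13) in APCs. These genes thus exchanged places between the bone marrow and both spinal cord libraries, whatever the scaling between libraries. Klf13 made up 27.1% of the summed TPM of the 9 genes in BM monocytes, 5.42% in SC monocytes and 4.77% in APCs. Klf6 made up 19.1%, 52.3% and 42.2%.

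Klf10 (ENSMUSG00000037465.10), on chromosome 15 from 38291463 to 38300706, is an early gene of the TGF-β response. It had 3678, 6356 and 5829 reads, or 91.8 TPM (95% interval 88.9 to 94.8), 163 TPM (159 to 167) and 148 TPM (144 to 152). Klf10 rose by 1.25 (98% interval 1.18 to 1.32) on the log2 scale into SC monocytes, and its change per length of 1.05 (98% interval 0.98 to 1.12) was not called. Its step to APCs was -0.27 (98% interval -0.33 to -0.21) on reads and -0.06 (98% interval -0.12 to 0.00) per length. Against Klf13, of the same Sin3-binding subgroup, its TPM ratio was 0.331 (98% interval 0.318 to 0.345), 1.76 (1.69 to 1.82) and 2.54 (2.43 to 2.65).

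Klf9 (ENSMUSG00000033863.2), on chromosome 19 from 23141226 to 23168134, is induced by glucocorticoids and thyroid hormone. It had 2532, 2682 and 1571 reads, or 28.0 TPM (95% interval 27.0 to 29.1), 33.3 TPM (32.0 to 34.6) and 17.8 TPM (16.9 to 18.7), lowest in APCs. It changed by 0.54 (98% interval 0.45 to 0.64) on the log2 scale into SC monocytes and by -0.92 (98% interval -1.03 to -0.81) in the step to APCs. The latter was the lowest of the 9 in this step and rank 365 from the bottom of 9734 genes, but part of its interval was inside a 2-fold change, and no call was made.

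Klf16 (ENSMUSG00000035397.8), on chromosome 10 from 80567124 to 80577321, had the fewest reads of the 9, at 307, 675 and 567. Its TPM was 5.95 (95% interval 5.32 to 6.65), 14.5 (13.5 to 15.7) and 11.2 (10.3 to 12.2). Klf16 rose by 1.59 (98% interval 1.37 to 1.83) on the log2 scale into SC monocytes and by 1.51 (98% interval 1.28 to 1.74) per length. In the step to APCs it changed by -0.40 (98% interval -0.59 to -0.21), which was not called. The difference of APCs from BM monocytes, 1.21 (98% interval 0.98 to 1.45), was not called on reads but was per length, at 1.25 (98% interval 1.01 to 1.49).

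By level the order in BM monocytes was Klf13, Klf4, Klf6, Klf2, Klf10, Klf3, Klf9, Klf7 and Klf16. In SC monocytes it was Klf6, Klf4, Klf10, Klf13, Klf2, Klf3, Klf9, Klf7 and Klf16, where Klf13 and Klf2 did not differ beyond counting error. APCs kept that order except that Klf2 stood above Klf13. The intervals of all other neighbours were apart. The summed level of the 9 was 1023, 1710 and 1224 TPM. Without Klf6 it was 828, 816 and 707 TPM. The 4 genes of the activating subgroup summed to 535, 1360 and 946 TPM, and the 4 Sin3-binding genes to 403, 303 and 236 TPM.

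Of the 9 genes, 4 were called higher and 2 lower from BM to SC monocytes, where 13.6% of all 10072 genes tested were called higher and 11% lower. Over all genes this was 1369 higher and 1104 lower. A plain 2-fold change on reads, with no interval, gave 1548 and 1485, and the same plain rule on rescaled TPM gave 1315 and 1890. With reads divided by effective length, 2 were higher (Klf6 and Klf16) and 1 lower (Klf13), against 13.8% and 11.5% of all genes. The median log2 fold change of the 9 was 0.98, beside -0.17 over all genes tested. Rescaled TPM ratios sat 0.22 lower on the log2 scale than changes per length for all genes in this step, because the scaling differs. In bulk RNA, fewer cells that express a gene and less RNA of it per cell cannot be told apart.

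**Figure D3:**
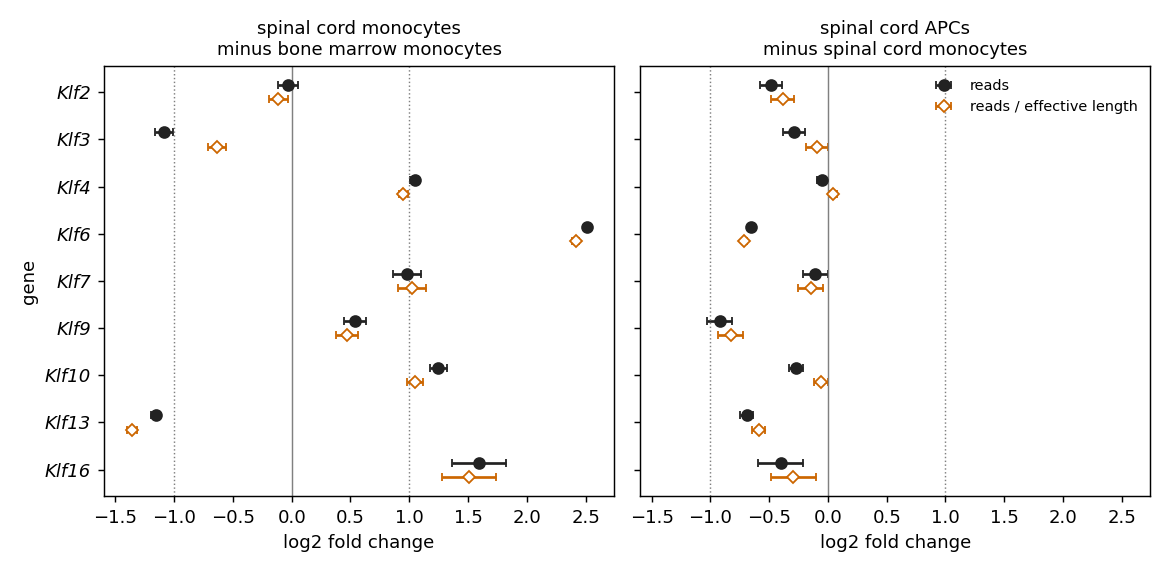
Log2 fold change of the 9 genes from BM to SC monocytes (left) and from these to APCs (right), on reads (filled circles) and on reads divided by effective length (open diamonds), with 98% counting intervals. Dotted lines mark a 2-fold change. The whole interval was past it by both measures for Klf6, Klf16 and Klf13 on the left, and for no gene on the right.

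From SC monocytes to APCs, 0 of the 9 were called in either direction, where 1.94% of 9734 genes tested were called higher and 1.66% lower. Per length the count was also 0, beside 2.38% higher and 3.33% lower of all genes. All 9 medians were below 0 on reads, compared with 52.6% of all genes, and 8 of 9 were below 0 per length, compared with 52.1%. The 98% interval lay wholly below 0 for 8 of the 9 on reads (all but Klf7), beside 35.7% of all genes, and for 6 of the 9 per length, beside 37.8%. Their median was -0.40 on reads and -0.29 per length, beside -0.03 and -0.02 over all genes.

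Between APCs and BM monocytes, 1 gene was called higher (Klf6) and 2 lower (Klf3 and Klf13), beside 14% and 11.7% of 10190 genes tested. Klf10 stood at 0.99 (98% interval 0.92 to 1.06), Klf7 at 0.89 (98% interval 0.77 to 1.01), Klf9 at -0.36 (98% interval -0.47 to -0.25) and Klf2 at -0.50 (98% interval -0.59 to -0.41), and none of these 4 was called. Klf3 was at -1.36 (98% interval -1.44 to -1.28) on reads and at -0.69 (98% interval -0.76 to -0.61) per length, where it was not called. Per length 2 were higher (Klf6 and Klf16) and 1 lower (Klf13), beside 14.4% and 12.5% of all genes. The 3 comparisons share libraries and are not independent of each other.

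The plot of both steps places the 9 genes among all genes. The closest pair of the 9 was Klf4 and Klf7, 0.09 apart in log2 units across both changes. Klf6 lay 0.95 from its nearest, Klf16, and Klf13 lay 0.41 from Klf3. Over the 3 libraries, of 8044 genes searched, those nearest to Klf6 were Nlrp3, an inflammasome sensor at 41.2, 204 and 120 TPM, then Prr5l and Cpeb2. Nearest to Klf13 were Atg4d, Tm6sf1 and Sephs2, and nearest to Klf4 were Zfp608, Cwc25 and Slc12a7. With 3 libraries this likeness rests on 2 differences per gene, taken on reads, and levels per length could differ more. Atg4d stood at 42.9, 15.4 and 3.43 TPM, a lower level in APCs relative to SC monocytes than that of Klf13, and Slc12a7 stood at 6.85, 13.2 and 9.09 TPM, whereas Klf4 was alike in both spinal cord libraries.

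**Figure D4:**
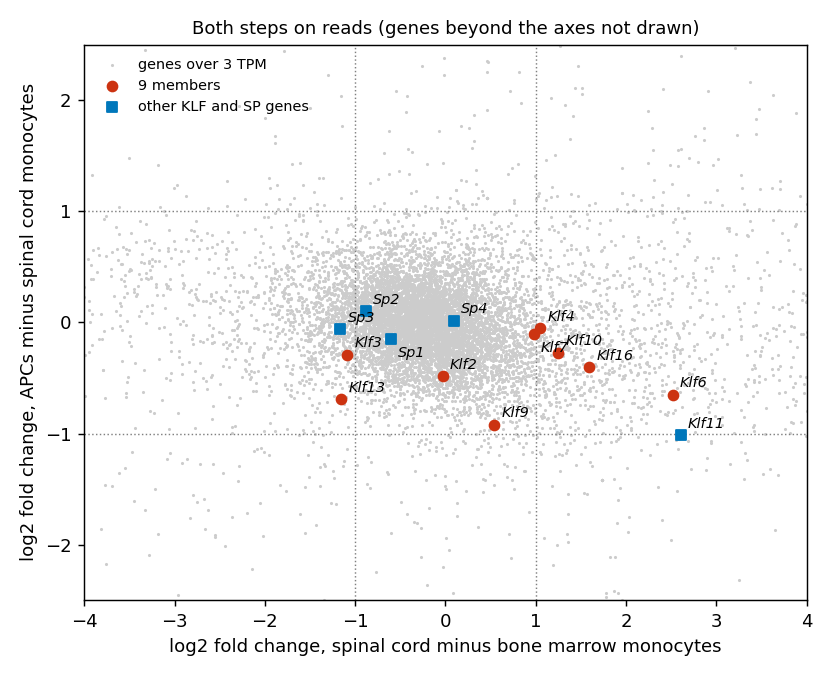
Log2 fold change on reads from BM to SC monocytes (horizontal) and from SC monocytes to APCs (vertical) for genes over 3 TPM (grey), the 9 Kruppel-like factors (red circles) and 5 other KLF and SP genes (blue squares), with dotted lines at a 2-fold change and no error bars. All 9 red circles lie below 0 on the vertical axis, and Klf6 (2.52, -0.65) lies near Klf11 (2.60, -1.01).

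The family has 17 other KLF and SP genes, of which 5 were above 3 TPM. Klf11, the closest relative of Klf10, had 623, 2758 and 1514 reads, or 8.87, 38.2 and 21.6 TPM. It rose by 2.60 (98% interval 2.46 to 2.76) on the log2 scale into SC monocytes and changed by -1.01 (98% interval -1.12 to -0.91) to APCs, which was not called. Sp3, a GC-box factor with both activating and repressing forms, fell from 141 to 53.2 TPM in SC monocytes (-1.17, 98% interval -1.23 to -1.10) and stood at 47.7 TPM in APCs. Sp1, at log2 fold changes of -0.60 and -0.15 in the first and the second step, Sp2, at -0.88 and 0.10, and Sp4, at 0.09 and 0.02, were not called. In each monocyte library 9 of the 17 had 3 reads or fewer, and in APCs 7 did, Klf14 and Klf17 among them in all 3.

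The genes that act on KLFs were measured as well. Of all genes tested, 13.6% were called higher and 11% lower into SC monocytes, and 1.94% and 1.66% from there to APCs. Of 16 upstream regulators, all tested, 1 rose and 0 fell into SC monocytes. It was Tgfbr1, a TGF-β receptor, which went from 20.1 to 46.3 TPM (1.50, 98% interval 1.41 to 1.59). Per length Mef2d, a factor upstream of Klf2 and Klf4, was also called higher, at 1.22 (98% interval 1.14 to 1.30), against 0.97 on reads. The list's median was 0.13 on reads. Tgfb1 was its most abundant gene, at 201, 301 and 248 TPM. Of 12 corepressors and coactivators, 0 were called, with a median of -0.35. Among them were Ctbp1, the partner of Klf3, at 181, 103 and 82.4 TPM, and Sin3b at 105, 114 and 94.6 TPM. Of 6 ubiquitin ligases that act on KLF proteins, 1 rose, Fbxo32, from 2.42 to 6.06 TPM (1.63, 98% interval 1.42 to 1.85), with a median of 0.85. No gene of these 3 lists was called between SC monocytes and APCs on reads, with medians of -0.14, -0.16 and 0.27. Per length 1 was called higher, Mef2c, which was chosen after its values were seen, as was Mef2d. Mef2c stood at 11.8 TPM in SC monocytes and 26.7 TPM in APCs, and its change was 1.26 (98% interval 1.11 to 1.42) per length and 0.97 (98% interval 0.81 to 1.13) on reads.

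Of 16 reported targets of KLF proteins, 15 were tested in the first step. Among these 11 rose and 2 fell, with a median of 4.83, beside 13.6% and 11% of all genes tested. Among those that rose were Nos2, which makes nitric oxide, with 8 reads in BM monocytes and 20683 in SC monocytes, and Arg1, an arginase, with 59 and 71856 reads. Itgb7, an integrin chain, fell from 519 to 159 TPM (-1.49, 98% interval -1.54 to -1.44). Between SC monocytes and APCs the median of the list was -0.45.

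Of 10 glucocorticoid-induced genes, the group to which Klf9 belongs, 9 were tested in the first step. Among them 5 rose and 3 fell, with a median of 1.93, beside 13.6% and 11% of all genes tested. Sgk1, a kinase, rose from 58.6 to 1405 TPM (5.05, 98% interval 4.97 to 5.12), followed by Errfi1 (4.31, 98% interval 4.06 to 4.56) and Per1 (2.36, 98% interval 2.28 to 2.44). The genes that fell were Zbtb16 (-2.60, 98% interval -3.05 to -2.17), Tsc22d3, an inhibitor of NF-κB and AP-1 (-1.40, 98% interval -1.48 to -1.32), and Fkbp5, a chaperone of the glucocorticoid receptor (-1.19, 98% interval -1.27 to -1.12). The list thus moved in both directions. In the step to APCs 0 of 8 tested were called, with a median of -0.05.

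Genes that respond to tissue dissociation and other immediate early stimuli moved with the same step as Klf6. Of 20 such genes 18 rose and 0 fell into SC monocytes, beside 13.6% and 11% of all genes tested. The 20 genes had a median of 2.45 and summed to 4402, 18751 and 14917 TPM. Hspa1b, a heat shock protein, rose from 14.1 to 1158 TPM (6.66, 98% interval 6.54 to 6.79), Hspa1a by 5.80 (98% interval 5.71 to 5.88), and Egr2, an early growth response factor, by 8.21 (98% interval 7.64 to 8.86) from 30 reads. Fos was the most abundant, at 1665, 2143 and 1769 TPM. Between SC monocytes and APCs 0 rose and 1 fell, Atf3 (-1.05, 98% interval -1.08 to -1.02), with a median of -0.26. Dusp1 and Zfp36 are also on the glucocorticoid list, and Nr4a1 on that of reported targets, so these lists share genes. The part of dissociation in the KLF differences was not tested.

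Markers of other cells also differed between the libraries. Of 8 microglia markers 1, 7 and 8 were above 3 TPM, and from SC monocytes to APCs 7 were called higher and 0 lower. P2ry12, the only one of them above 3 TPM in BM monocytes, stood at 10.1, 36.0 and 85.6 TPM, and the other 7 summed to 2.91, 74.8 and 200.5 TPM. Endothelial markers, of a cell type rich in Klf2 and Klf4, summed to 17.7, 91.0 and 53.3 TPM, with 2, 6 and 4 of 8 above 3 TPM. Of these sums Flt1 made up 7.06, 43.1 and 26.8 TPM, and Pecam1 9.66, 13.8 and 8.52 TPM. T cell markers summed to 0.673, 41.7 and 59.3 TPM, with 0, 6 and 6 of 8 above 3 TPM. Granule genes of myeloid progenitors summed to 630, 62.5 and 22.9 TPM, with 4, 2 and 1 of 4 above 3 TPM, and so moved in the same direction as Klf13. Neutrophil markers summed to 998, 187 and 411 TPM, with 4, 6 and 6 of 7 above 3 TPM, and without Mmp8 to 291, 67.9 and 274 TPM. Of these markers 4 were called lower into SC monocytes and 2, Retnlg and Cxcr2, higher. From SC monocytes to APCs 3 neutrophil markers, Ngp, Ltf and Retnlg, were called higher and 0 lower. Erythroid markers summed to 1.94, 148 and 50.3 TPM, with 0, 4 and 3 of 6 above 3 TPM. Dendritic cell markers summed to 40.8, 21.3 and 28.3 TPM, of which Flt3, also a gene of progenitors, made up 37.8 TPM in BM monocytes. Without Flt3 their sum was 3.01, 17.6 and 21.7 TPM, and with it 1, 3 and 5 of the 6 were above 3 TPM. From SC monocytes to APCs, Zbtb46 (2.78, 98% interval 2.18 to 3.46) and Itgae (2.30, 98% interval 1.78 to 2.87) rose. Batf3 went from 11.7 to 6.34 TPM, or 106 to 73 reads, and was not called. Oligodendrocyte markers summed to 73.1, 54.7 and 53.1 TPM, and without Mbp to 0.480, 19.0 and 19.3 TPM. B cell markers summed to 8.69, 3.52 and 3.79 TPM, and without Cd79b to 0.159, 0.976 and 0.523 TPM. The part of other cells in the KLF differences was not tested.

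Apart from Klf7, the 9 genes shared little sequence with other genes. No stretch of 50 bases in the transcripts of any of the 9 occurred in another KLF or SP gene. Klf2, Klf6, Klf9, Klf10 and Klf16 shared none with any other gene, and the shared share was 0.263% for Klf4, 0.147% for Klf13 and 3.48% for Klf3. At 25 bases Klf13 shared stretches with 4 other KLF or SP genes, Klf3 with 3, Klf7 with 2, and Klf6 and Klf10 with 1 each. The share of 25-base stretches found in any other gene was 5.19% for Klf3, the highest apart from Klf7. Klf13 is overlapped on the opposite strand by Gm27252, with 174 reads in bone marrow and 39 in SC monocytes, and by E030018B13Rik, with 3, 58 and 26 reads, all small beside its own 6158 to 27478 reads.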

How the data were processed

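RNA from 3 pooled populations was sequenced as 50-base paired-end reads of KAPA mRNA libraries. The authors estimated expression with Salmon 0.14.1 on GENCODE M22 (mm10), summing the transcripts of each gene. They deposited estimated counts of reads, which are not normalized, together with TPM, which corrects for library size and effective length. The reason for the smaller gene set of the APC library is not given in the sources used here. Strand settings are not given there either.

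Here, TPM was rescaled to 1000000 over the 22238 common genes, and estimated counts were rounded. The log2 ratio of 2 libraries had a gamma posterior after 1 read was added to each gene, and size factors were medians of ratios. Its percentiles 1 and 99 gave the 98% interval. This computes anew the definition of GFold in the study's methods. The TPM threshold of 3 and the set of common genes were chosen here, and the numbers of genes called differ from the study's. The step was tested on simulated counts with counting error only and planted changes well past the threshold. That test does not cover calls near the threshold or a spread between libraries. No p-value was possible with 1 library per group. TPM of 3 reads was taken as the floor, and all 9 genes were above it in every library. Wilson intervals and floors cover counting error only, since PCR copies are not independent molecules.

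The 9 genes, the gene lists and the tests were chosen with earlier results of these data known. Named were the 9 genes, family members above 3 TPM, up to 3 called genes in each direction and the most abundant gene of a list, and for up to 3 of the 9 genes the 3 nearest among genes over 10 TPM. Ccl5, Ctbp1, the subgroup sums and the ratios between genes were added after their values were seen. Alternatives were other scalings, thresholds, lengths and TPM ratios, and an assumed spread between libraries. Gene coordinates and transcripts came from GENCODE M21 on GRCm38, where all 9 identifiers and versions matched. Promoters came from RefSeq. TMM factors came from edgeR 4.0.16 in R 4.3.3. All else was run in Python 3.11.15 with scipy 1.17.1, statsmodels 0.14.6, numpy 2.4.6, matplotlib 3.10.9 and pandas 2.3.3. Results on some genes of the list of reported KLF targets are not reported here.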

Additional observations from a re-analysis of the deposited data

How the results depend on the processing

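With 1 library per population, no replicate could be left out. No paired analysis was possible because each group had 1 library. From bone marrow to spinal cord monocytes, 4 of the 9 genes were called higher and 2 lower. With reads divided by effective length these counts were 2 and 1, as they were with a plain 2-fold change of rescaled TPM and a pseudocount of 1 or 0.1 and with TPM as deposited. With all genes of the monocyte libraries 2 were higher, and with percentile 0.1 and its upper counterpart there were 3 higher, without Klf4, and 1 lower, without Klf3. Total reads also gave 3 higher, without Klf4. When libraries were assumed to vary with a coefficient of variation of 0.2, this left 1 higher (Klf6) and 0 lower, and with 0.4 left 0 and 0. Between APCs and bone marrow monocytes, 1 was higher and 2 lower. Per length and with TPM as deposited there were 2 higher and 1 lower, with a plain 2-fold change 3 higher, and with the assumed spread of 0.2 or 0.4 there were 0 and 0. Between spinal cord monocytes and APCs the counts were 0 and 0 under every alternative run. No called change of the 9 genes reversed. Over all genes, calls in this last step went from 189 higher and 162 lower to 232 and 324 per length, and to 43 and 14 with a spread of 0.4. From bone marrow to spinal cord monocytes, 1369 higher and 1104 lower became 627 and 228 with that spread, 2591 and 1211 with no threshold on TPM, 1548 and 1485 with a plain 2-fold change on reads, and 1315 and 1890 with a plain 2-fold change of rescaled TPM and a pseudocount of 1, which changes both the rule and the measure. Except with the plain change on reads, the share of higher calls moved by more than 10 percentage points. Between APCs and bone marrow monocytes, 1430 and 1196 became 1315 and 2433 with that TPM setting, and in the last step they became 274 and 528. Total reads as scaling shifted all genes of the first step by -0.16. Without replicates, the spread between animals was not measured, and only the assumed spread stands for it.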
